A study of Mus musculus with 2 samples.

Results

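RMER elements are repeats first described in rodent genomes, and most of them are the long terminal repeats (LTRs) of old endogenous retroviruses. The rows analysed here were chosen by name alone. They are the 43 of 952 repeat types in the deposited tables whose name starts with RMER, and they fall into 16 number families such as RMER17 and RMER19. A number family is split into lettered subtypes such as RMER17A and RMER17B, and 6 rows ending in -int hold the internal part of an element. RMER30 is usually annotated as a DNA transposon and RMER1 is usually not placed among the LTR elements, so the description as LTR elements covers the other 14 number families. The tables give neither class nor sequence, and no sequence is shown.

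The data come from 1 chromatin immunoprecipitation sample and 1 input sample of wild-type 129S1/SvImJ mouse embryonic stem cells below passage 20, grown in serum with leukemia inhibitory factor. Both samples came from cells held in 9 µM RO-3306, a CDK1 inhibitor, for 12 hours and harvested in mitosis 11 hours after release. The immunoprecipitation targeted H3.3S31ph, the histone variant H3.3 carrying a phosphate on serine 31, and the input received no antibody. No unsynchronised cells and no cells without H3.3 are part of the comparison, which asks how the antibody-bound reads are spread over repeats relative to the chromatin put in. Each library was run in 2 lanes, which repeat the sequencing and not the experiment. Each group has 1 sample, so the 95% intervals below reflect counting error alone, and nothing here was checked against a second culture.

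An endogenous retrovirus is flanked by an LTR at each end, which carries its promoter, and recombination between the LTRs often removes the internal part and leaves a solitary LTR. H3.3 is a histone variant laid down outside DNA replication, among other places at endogenous retroviruses that embryonic stem cells keep silent with H3K9 methylation. Serine 31 is found in H3.3 and not in the replication-coupled H3 histones, and it is phosphorylated in mitosis.

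Summed over lanes, the tables held 12235477 reads from the ChIP and 8856751 from the input. The ratio used throughout is the share of a row among all ChIP reads of the tables divided by its share among all input reads. Of the 952 rows, 704 had at least 100 input reads and were analysed, and 39 of these were RMER rows. The median analysed repeat had a ratio of 0.805. A relative log2 ratio is the log2 ratio of a row minus that of this median repeat, taken as fixed, and it does not depend on the scale chosen between the libraries. The internal sequence IAPEz-int of the young intracisternal A particles, given for scale, had a relative log2 ratio of 1.76.

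As a group the RMER rows lay at the bulk of repeats, with no row near the enrichment of the young retrovirus. The 39 analysed rows had a median ratio of 0.816 and a range from 0.703 to 0.994. Their median log2 ratio was -0.29, or 0.020 above the median of all analysed repeats. Together they held 672611 ChIP reads and 603374 input reads, which is 5.50% of the ChIP reads and 6.81% of the input reads, a pooled ratio of 0.807 (0.804 to 0.810). Without the RMER1 and RMER30 rows the median of the other 35 rows was -0.29, or 0.022 above all repeats.

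An interval below 1 was found for 37 of the 39 rows, against 79.5% of all analysed repeats, and an interval above 1 for 0 of 39, against 7.81%. The exceptions were RMER10B and RMER21A, whose intervals included 1. Relative to the median repeat, 16 rows lay above it, against 27.3% of all repeats, 11 lay below it, against 19.2%, and 12 were not separable from it. RMER rows carried a median of 12925 input reads, whereas the median analysed repeat carried 1420.5, and deeper rows have narrower intervals. By size, 4 rows lay at least 1.1-fold above the median repeat, against 22.3% of all repeats, and 4 at least 1.1-fold below it, against 14.8%. At 1.2-fold the counts were 2 above, against 14.3%, and 0 below, against 4.4%. Among the 301 analysed repeats with input reads in the RMER range, a background chosen after seeing the data, 24.3% lay at least 1.1-fold above and 7.31% below, and 17.3% and 0.997% at 1.2-fold. By interval, 251 of these 301 lay below 1 and 35 above 1, while 112 lay above the median repeat and 83 below it. The split around 1 depended on the scale. With the constants behind the authors' deposited log2 ratios as the scale, an alternative called the deposited scale, 3 rows had an interval above 1, against 15.5% of all repeats, and 31 had one below 1, against 55.7%. With the old MIR and L2 repeats set to 1 instead, 6 rows lay above 1, against 20.2%, and 21 below 1, against 35.4%.

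**Figure D1:**
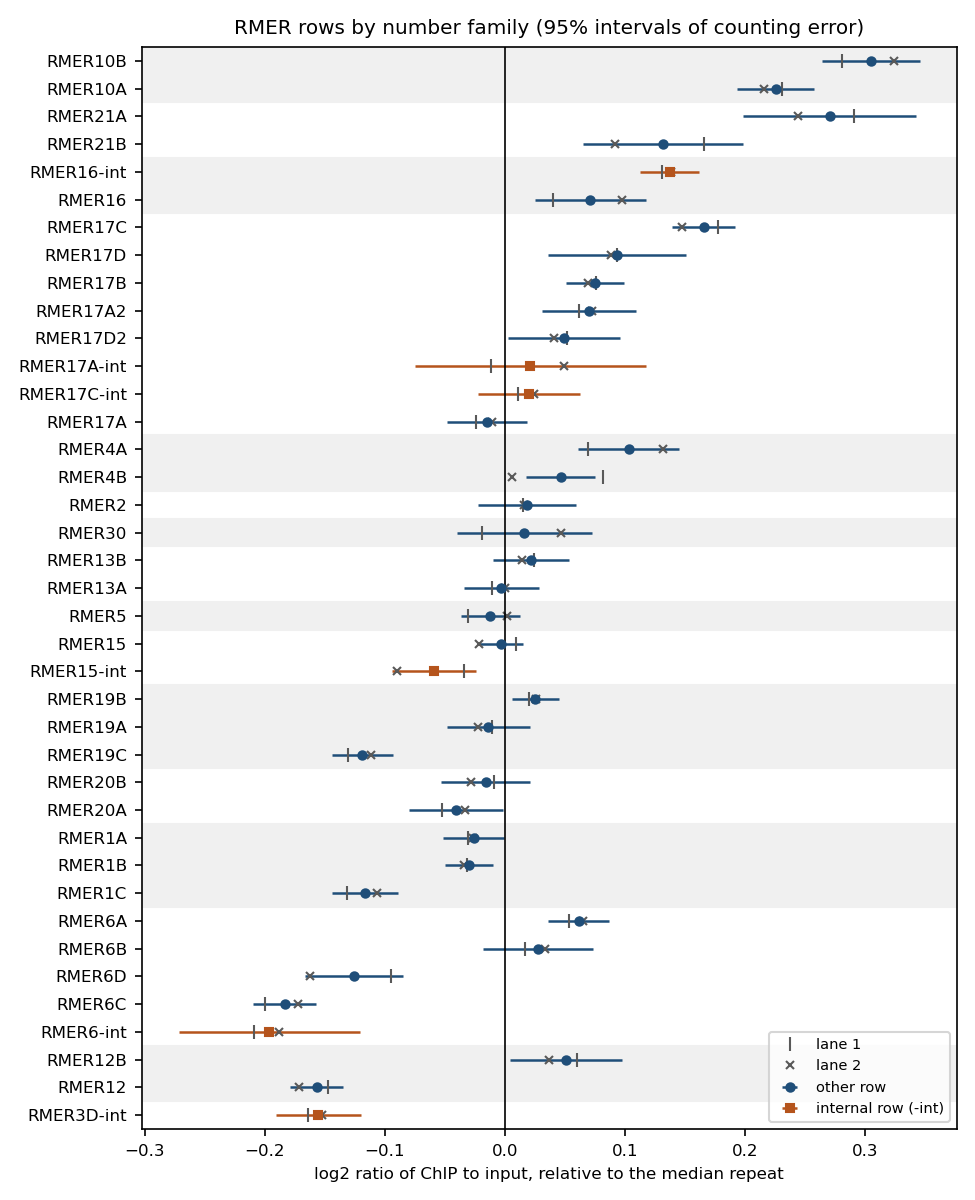
Log2 ratio of ChIP to input relative to the median repeat (x axis) for the 39 analysed RMER rows, grouped by number family in the order of the pooled ratio. Points are both lanes summed with 95% intervals of counting error, and bars and crosses are lanes 1 and 2 alone. RMER10B stands highest at 0.30 and RMER6-int lowest at -0.20.

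The number families spread over a narrow range, with RMER10 at the top and RMER3 at the bottom. The pooled ratio was 0.961 (0.944 to 0.978) for RMER10 and 0.723 (0.705 to 0.741) for RMER3, a log2 difference of 0.41. Below RMER10 came RMER21 at 0.922 (0.891 to 0.954), RMER16 at 0.876 (0.863 to 0.890), RMER17 at 0.848 (0.841 to 0.856) and RMER4 at 0.842 (0.828 to 0.856). These 5 families lay above the median repeat, while RMER2, RMER30, RMER13, RMER5 and RMER15, from 0.815 down to 0.796, were not separable from it. The 6 families below it were RMER19 and RMER20, both at 0.790, RMER1 at 0.777, RMER6 at 0.770, RMER12 at 0.742 and RMER3. Some of these calls sat at the edge. In each lane alone the interval of RMER20 included the median repeat. RMER15 lay below it in lane 2 alone, and with a minimum of 1000 input reads or none. RMER5 lay below it with the minimum of 1000.

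Most neighbours in this order could not be told apart. Of 15 neighbouring pairs, only 4 had a difference whose interval excluded 0, and these sat near the ends. They were RMER10 over RMER21 by 0.060 on the log2 scale (0.0055 to 0.12), RMER21 over RMER16 by 0.073, RMER16 over RMER17 by 0.047 and RMER6 over RMER12 by 0.055 (0.029 to 0.080). The last of these turned when each row of a family counted once, since the median row of RMER6 stood at a relative log2 ratio of -0.13 and that of RMER12 at -0.053. From RMER17 down to RMER6 no family was separable from the next. The distance from RMER10 to RMER3 was 0.41 in both lanes. RMER10 and RMER21 were closer in lane 1, with log2 ratios of -0.060 and -0.087, than in lane 2, with -0.054 and -0.15. No joint level was applied to the neighbouring pairs.

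**Figure D2:**
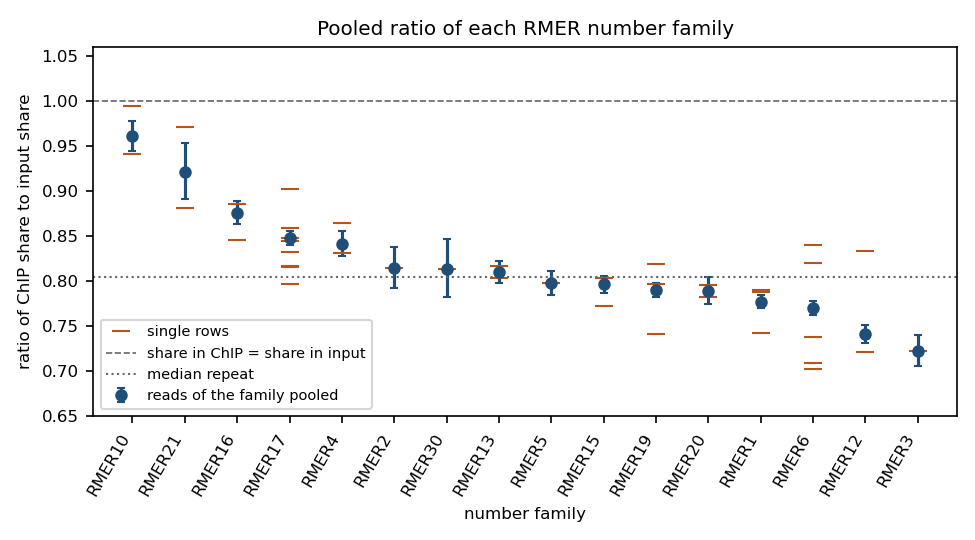
Ratio of ChIP share to input share (y axis, which does not start at 0) for the 16 RMER number families (x axis). Points are pooled reads with 95% intervals of counting error, and short bars are single analysed rows. The order runs from 0.961 for RMER10 to 0.723 for RMER3, with all pooled values below 1.

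RMER10 and RMER21 had the highest pooled ratios, and on the scale of total reads they lay nearest to the input level. RMER10B had 5754 ChIP reads in lane 1 and 5694 in lane 2, against 4228 and 4107 input reads, a ratio of 0.994 (0.966 to 1.02). Its lanes gave relative log2 ratios of 0.28 and 0.32, and it ranked 88 of the 704 analysed repeats. RMER10A, with 9071 and 8954 ChIP reads against 6900 and 6963 input reads, had a ratio of 0.941 (0.921 to 0.962). The subtypes differed by 0.079 (0.027 to 0.13) on the log2 scale, by 0.050 in lane 1 and 0.11 in lane 2. Both stood above every RMER row outside RMER21, in the summed lanes and in each lane alone.

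RMER21A had 1868 and 1768 ChIP reads against 1363 and 1348 input reads, a ratio of 0.971 (0.923 to 1.02) at rank 97. RMER21B, with 2078 and 1966 ChIP reads against 1654 and 1666 input reads, had a ratio of 0.882 (0.842 to 0.923). The difference between them was 0.14 (0.041 to 0.24) on the log2 scale. In lane 1 alone its interval included 0, and it did not hold at the joint level. RMER21 is among the less abundant families, with 1.00% of the RMER input reads, so its intervals are wide. On the deposited scale the rows with an interval above 1 were RMER10A, RMER10B and RMER21A.

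RMER17 is the family with most rows and the largest share of RMER reads, 15.1% in the input and 15.8% in the ChIP. Its 8 rows lay between 0.797 and 0.903, all below the input level on the scale of total reads. RMER17C stood highest, with 13215 and 12516 ChIP reads against 10432 and 10201 input reads, a ratio of 0.903 (0.886 to 0.919) and a relative log2 ratio of 0.17. The most abundant row, RMER17B, had 14887 and 14474 ChIP reads against 12611 and 12459 input reads, a ratio of 0.848 (0.834 to 0.862). RMER17A was lowest, with 7783 and 7540 ChIP reads against 7064 and 6858 input reads, a ratio of 0.797 (0.779 to 0.815). Its interval included the median repeat, whereas those of RMER17B and RMER17C lay above it.

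RMER17C lay above the 7 other rows of its family with intervals that excluded 0, and above 5 of them, all but RMER17D and RMER17A-int, at a joint 95% level over all 52 pairs compared here. It lay above RMER17A by 0.18 (0.14 to 0.22), above RMER17B by 0.091 (0.055 to 0.13) and above RMER17D, the nearest, by 0.072 (0.0090 to 0.14) on the log2 scale. In each lane alone the interval of the difference from RMER17D included 0. RMER17D, RMER17B, RMER17A2 and RMER17D2, with ratios of 0.859, 0.848, 0.845 and 0.833, were not separable from each other, with intervals of their differences spanning -0.046 to 0.12. RMER17A2 lay above RMER17A, which carries the same letter, by 0.085 (0.033 to 0.14), with 0.086 and 0.083 in the lanes, though not at the joint level. For RMER17D and RMER17D2, which also share a letter, the difference was 0.044 (-0.030 to 0.12). Pooled by letter without the internal rows, the ratios were 0.817 for A, 0.848 for B, 0.903 for C and 0.843 for D.

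From its highest to its lowest row, RMER6 had the widest range of any number family, 0.26 on the log2 scale, and its rows fell on both sides of the median repeat. RMER6A had 13537 and 13200 ChIP reads against 11647 and 11396 input reads, a ratio of 0.840 (0.825 to 0.855). RMER6B had a ratio of 0.820 (0.795 to 0.847), not separable from RMER6A at a difference of 0.034 (-0.018 to 0.086). RMER6C, the most abundant row, had 11797 and 11723 ChIP reads against 12094 and 11926 input reads, a ratio of 0.709 (0.696 to 0.722). RMER6D, at 0.738 (0.717 to 0.759), lay above it by 0.058 (0.0092 to 0.11) on the log2 scale, which was 0.10 in lane 1 and 0.010 in lane 2. In lane 2 alone the interval of this difference included 0, and it did not hold at the joint level. The step from RMER6A to RMER6C was 0.24 (0.21 to 0.28) on the log2 scale, 0.25 in lane 1 and 0.24 in lane 2. RMER6A lay above the median repeat and RMER6C, RMER6D and RMER6-int lay below it.

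**Figure D3:**
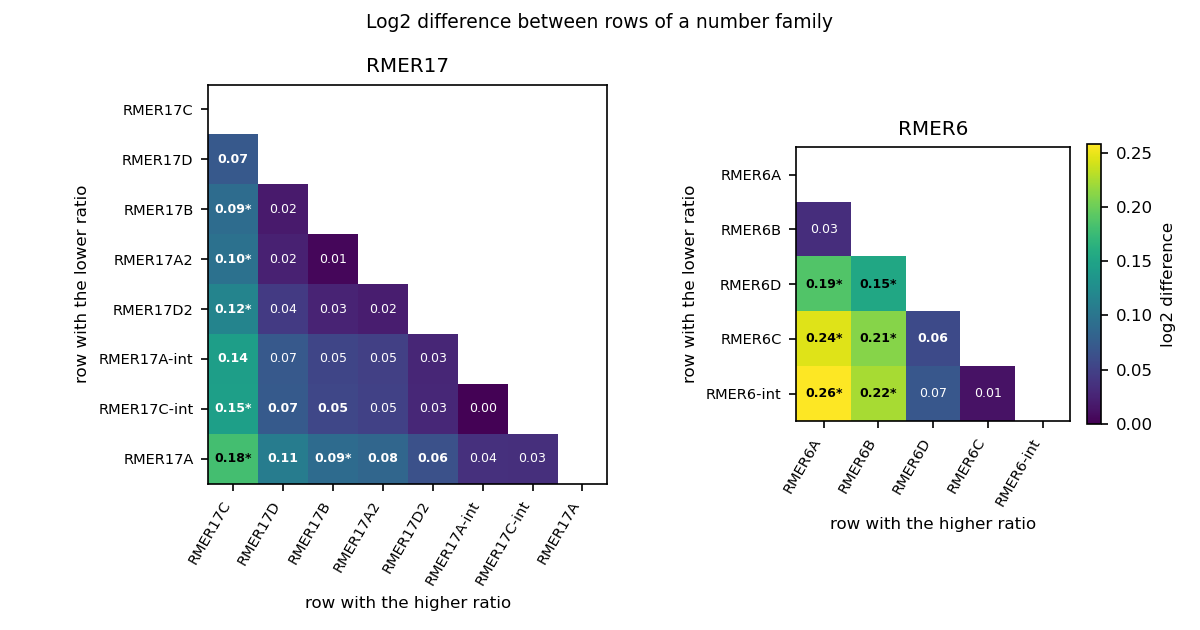
Log2 difference between every pair of analysed rows in RMER17 (left) and RMER6 (right), the higher row on the x axis and the lower on the y axis. Bold values have a 95% interval of counting error that excludes 0, and an asterisk marks those that still do so at a joint level over all 52 pairs. RMER17C stands 0.072 or more above its family, and RMER6A and RMER6B stand apart from the other 3 RMER6 rows.

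The 2 rows of RMER12 differed from each other, and RMER19 and RMER1 each held 1 subtype that stood apart. RMER12 itself had 16727 and 16111 ChIP reads against 16539 and 16386 input reads, a ratio of 0.722 (0.711 to 0.733), while RMER12B had 0.834 (0.807 to 0.861). That difference of 0.21 (0.16 to 0.26) on the log2 scale was 0.21 in both lanes, and only RMER12B lay above the median repeat. In each lane alone, and with a minimum of 1000 input reads, the interval of RMER12B included the median repeat. RMER19B, the most abundant row of its family, had 21736 and 21356 ChIP reads against 19135 and 18941 input reads, a ratio of 0.819 (0.808 to 0.831). RMER19A had 0.797 (0.778 to 0.816), and RMER19C, with 12594 and 12469 ChIP reads against 12311 and 12161 input reads, had 0.741 (0.728 to 0.755). RMER19C lay below RMER19B by 0.14 (0.11 to 0.18) and below RMER19A by 0.10 (0.062 to 0.15), whereas RMER19A and RMER19B were not separable.

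In RMER1 the C subtype was the low one. RMER1B, the most abundant row, had 20963 and 20226 ChIP reads against 19126 and 18698 input reads, a ratio of 0.788 (0.777 to 0.799), and RMER1A, with 13010 and 12745 ChIP reads against 11860 and 11722 input reads, was close to it at 0.791 (0.777 to 0.805). RMER1C, with 10903 and 10809 ChIP reads against 10661 and 10506 input reads, had 0.742 (0.729 to 0.757), lower than RMER1A by 0.090 (0.053 to 0.13) on the log2 scale.

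The other lettered families were more even. RMER13A had 8718 and 8524 ChIP reads against 7841 and 7698 input reads, a ratio of 0.803 (0.786 to 0.821), and RMER13B had 0.817. RMER20B had 6222 and 5983 ChIP reads against 5590 and 5509 input reads, a ratio of 0.796 (0.776 to 0.817), and RMER20A had 0.783. Neither pair was separable, with intervals of the log2 difference from -0.019 to 0.069 and from -0.029 to 0.078. In RMER4 the lanes disagreed. RMER4B had 10637 and 10202 ChIP reads against 8971 and 9176 input reads, a ratio of 0.831 (0.815 to 0.848), and RMER4A had 0.864 (0.840 to 0.890). The difference of 0.057 (0.0056 to 0.11) was -0.013 in lane 1 and 0.13 in lane 2. Its sign therefore rests on lane 2.

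Of the families with a single row, RMER2 had 5194 and 5072 ChIP reads against 4589 and 4528 input reads, a ratio of 0.815 (0.792 to 0.838). RMER5 had 14083 and 14007 ChIP reads against 12844 and 12633 input reads, a ratio of 0.798 (0.785 to 0.812). RMER30 had 2702 and 2682 ChIP reads against 2444 and 2344 input reads, a ratio of 0.814 (0.783 to 0.846). All 3 intervals included the median repeat.

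Internal rows were mostly at or below the other rows of their number when those were pooled. RMER6-int, the lowest RMER row, had 1383 and 1422 ChIP reads against 1427 and 1463 input reads, a ratio of 0.703 (0.667 to 0.740), 0.14 (0.062 to 0.21) on the log2 scale under the pooled RMER6A to RMER6D. Within that pool it was close to RMER6C, from which it was not separable (difference of 0.013, from -0.067 to 0.092). Nor was it separable from RMER6D (difference of 0.070, from -0.015 to 0.16). RMER15, the most abundant RMER row, had 25421 and 24460 ChIP reads against 22541 and 22418 input reads, a ratio of 0.803 (0.793 to 0.813). RMER15-int, with 7001 and 6647 ChIP reads against 6400 and 6386 input reads, had 0.773 (0.754 to 0.792), and the log2 ratio of the internal row minus that of the LTR row was -0.056 (-0.095 to -0.016). In lane 1 alone the interval of this difference included 0, and the difference did not hold at the joint level.

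RMER16 went the other way. RMER16-int had 14718 and 14250 ChIP reads against 11999 and 11689 input reads, a ratio of 0.885 (0.870 to 0.901), and RMER16 had 4088 and 4061 against 3550 and 3426, a ratio of 0.846 (0.819 to 0.873). The internal row was higher by 0.066 (0.014 to 0.12) on the log2 scale. In lane 2 alone the interval included 0, and the difference did not hold at the joint level. RMER17C-int, with 4787 and 4703 ChIP reads against 4241 and 4176 input reads, had a ratio of 0.816 (0.792 to 0.841). It differed from the pooled RMER17 rows by -0.062 (-0.11 to -0.018) and from RMER17C by -0.15 (-0.20 to -0.096). RMER17A-int, with 947 and 925 ChIP reads against 852 and 807 input reads, had 0.817 (0.764 to 0.873) and was not separable from the pooled RMER17 rows at -0.061 (-0.16 to 0.036). Against RMER17A and RMER17A2 pooled the value was 0.00048 (-0.098 to 0.099), a comparison chosen after seeing the data, as was that with RMER17C alone. RMER17A-int and RMER17C-int lay above RMER17A by 0.036 and 0.035, though neither was separable from it. The comparisons with the pooled RMER17 rows were not given joint intervals.

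RMER3 was the family with almost no reads outside its internal row. RMER3D-int had 6618 and 6475 ChIP reads against 6617 and 6496 input reads, a ratio of 0.723 (0.705 to 0.741). Its companions, RMER3D1, RMER3D2, RMER3D3 and RMER3D4, had 1, 6, 9 and 7 ChIP reads in all, set against 0, 8, 7 and 7 in the input. They are the 4 RMER rows left out of the analysis of single rows by the read minimum, and pooled their ratio was 0.757 (0.403 to 1.42). Their few reads do count in the pooled ratio of RMER3 and in the family shares of RMER reads. No difference between the LTR and internal parts of RMER3 was detectable at this depth. The next least covered RMER row, RMER17A-int, had 1659 input reads.

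Over all lettered and internal rows, 52 pairs within 12 number families were compared. The interval excluded 0 for 30 pairs, and for 17 with intervals widened to a joint 95% level over the 52 pairs. The sign was the same in both lanes for 48 pairs, and each lane alone excluded 0 for 19. Of the 17 pairs, 6 were in RMER17, 6 in RMER6, 2 each in RMER1 and RMER19, and 1 in RMER12. Pairs of other repeats were not counted, so these pair counts have no background beside them. Many rows of such depth separate by interval. Of the 301 repeats in the RMER read range, 112 lay above the median repeat and 83 below it. The standard deviation of log2 ratios among rows of the same number was 0.077, that among the 16 pooled families was 0.11, and the median counting error of a row was 0.018. Taken over all families, rows of the same number thus varied by more than counting error, if less than the families did. This did not hold in each family. The rows of RMER6 and RMER12 had standard deviations of 0.12 and 0.15, above that among families. Those of RMER13 and RMER20, at 0.018 and 0.017, lay near the counting error. The measures are also unlike, single rows against pooled reads, with 4 families of 1 analysed row. The comparison is given without a test.

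The lanes gave close values. The log2 ratios of a row differed between lanes by a median of 0.019 and by at most 0.077, for RMER4B. The interval of this difference excluded 0 for 1 of 39 rows, RMER4B, against 5.97% of all analysed repeats. On the same side of the median repeat in both lanes were 35 rows, a count made for RMER rows only and without a background. Across the 39 rows, Spearman's rho between lanes was 0.92, a description over rows that share both libraries. Across the same rows, rho between the ratio and the number of input reads was -0.30, again a description. The conservative values of the authors' deposited table were also counted on either side of 0. In lane 1 the counts were 4 of 43 above, against 13.3% of all 952 rows, and 32 below, against 40.8%. In lane 2 they were 3 above, against 12.9%, and 30 below, against 40.2%. The 952 rows include those under 100 input reads, and deeper rows have narrower intervals, so these shares are not matched for depth.

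RMER rows were set beside 3 other groups of LTR rows. The RLTR rows, LTRs of several rodent retroviral families young and old, had a median ratio of 0.855 over 102 analysed rows. They ran from 0.707 to 1.56, with an interval above 1 for 22, against 7.81% of all analysed repeats. The rodent MaLR rows, MTA to MTE and ORR1, had a median of 0.800 over 27 rows and ran only from 0.746 to 0.849. The MLT1 rows, an older MaLR group shared by mammals, had a median of 0.776 over 32 rows and ran from 0.686 to 0.865. No name starting with MST was in the tables. The RMER median of 0.816 thus stood between the RLTR and MaLR medians, and the rows of RMER10 and RMER21, RMER17C and RMER16-int, from 0.882 up, lay above all these MaLR and MLT1 rows. At least 1.1-fold above the median repeat were 45 of 102 RLTR rows, 0 of 27 rodent MaLR rows and 0 of 32 MLT1 rows. The same held for 4 of 39 RMER rows and 22.3% of all analysed repeats. These differences between groups were not tested, since each group has 1 sample.

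**Figure D4:**
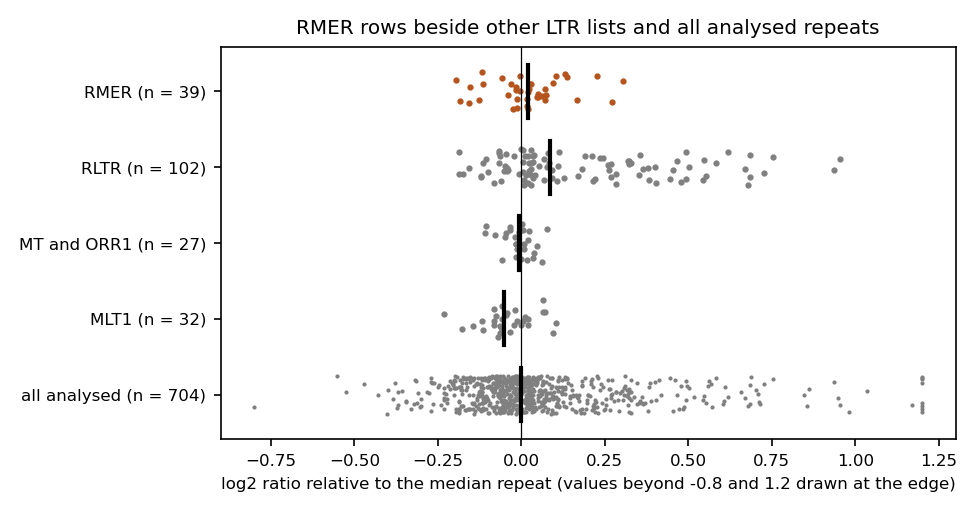
Log2 ratio relative to the median repeat (x axis) for the 39 RMER rows, 102 RLTR rows, 27 MT and ORR1 rows, 32 MLT1 rows and all 704 analysed repeats, 1 point a row, with vertical bars at the medians. RMER rows run from -0.20 to 0.30 around a median of 0.020, and RLTR rows reach further up.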

How the data were processed

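The authors deposited raw counts of reads for every repeat type, 1 table for each of 2 lanes, with ChIP and input side by side. The deposited log2 ratios with their bounds and conservative values are the authors' own. Bowtie 1.0.0 and mm9 appear in the submitters' processing notes. The treatment of duplicates and of reads matching several repeat types is not stated there.

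Lanes were summed. Lane 1 held 6204712 ChIP and 4467116 input reads, and lane 2 held 6030765 and 4389635. Ratios use totals over all rows, with exact conditional (Clopper-Pearson) 95% intervals, and differences between rows use a normal approximation on the log scale. Both cover counting error only and treat every read as independent. Amplified reads without molecular identifiers are not independent molecules, so the intervals may be too narrow even for counting error. Rows needed 100 input reads, a minimum not applied when the reads of a family were pooled. A call by size meant 1.1-fold from the median repeat. The computation was tested on simulated data (Python 3.11.15, scipy 1.17.1).

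All RMER rows could be named. Read counts are given for the most abundant row of each number family, the highest and lowest rows of families with 3 or more analysed rows, the 3 highest and 3 lowest RMER rows and internal rows, and other rows mostly by ratio. Members, lists and rules were chosen with earlier results of these data known. A planned split by retroviral class is not reported, because the tables give no class. Alternatives were other scales, single lanes, other read minimums, 1 added read, a 1.2-fold call, joint intervals and the median row of a family in place of its pooled reads.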

Additional observations from a re-analysis of the deposited data

How the results depend on the processing

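The scale between the libraries adds 1 constant to every log2 ratio and leaves relative values and differences between rows as they are. The RMER median log2 ratio of -0.29 became 0.020 with the median repeat set to 1, -0.044 with MIR and L2 rows set to 1, -0.12 on the deposited scale and -0.36 with the 5 repeats of most input reads left out of the totals. Rows with an interval above 1 numbered 16, 6 and 3 under the first 3 of these scales, in place of 0, where 27.3%, 20.2% and 15.5% of all repeats did so. Rows below 1 numbered 11 with the median repeat set to 1 and 21 with MIR and L2 rows set to 1, against 19.2% and 35.4% of all repeats, in place of 37. Pooled families above 1 numbered 5, 3 and 2 under the first 3 scales, in place of 0, and families below 1 numbered 6 and 10 under the first 2, in place of 16. A 1.2-fold call gave 2 rows above and 0 below the median repeat, in place of 4 and 4. With the median row of a family in place of its pooled reads, 4 of 16 families moved beyond their interval, to relative log2 ratios of -0.030 for RMER1, 0.059 for RMER17, -0.13 for RMER6 and -0.053 for RMER12, the last 2 changing order. Joint intervals left 17 of 30 differing pairs. The distance of the RMER median from the median repeat ran from 0.0040, with at least 1000 input reads, to 0.022, without RMER1 and RMER30, and was 0.0055 against the 301 repeats with read numbers in the RMER range. The last 2 were chosen after seeing the data. Of the 27 rows separable from the median repeat, 7 were no longer so in lane 1 alone and 7 in lane 2 alone, and no row changed side beyond its interval. No paired analysis was possible because each group has 1 sample.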
